A study of Mus musculus with 6 samples.

Results

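The proteasome subunit genes were taken as every gene whose listed symbol began with Psm, a letter from a to g and a digit. This rule chose 188 accessible regions (peaks) of 48 genes, of 282898 peaks and 19109 genes in all, and 60 of the 188 peaks were annotated to a transcription start site, of 20036 such peaks in all. One of the 48 genes, Psmc3ip, encodes a partner of meiotic recombination proteins and no proteasome subunit. It was kept among the members in the counts and sums below, beside 47 genes of the proteasome and its helpers. Psma4, which encodes a subunit of the outer core ring, had no peak under its own symbol. ATAC-seq, where Tn5 transposase cuts accessible DNA and adds adaptors to it, gave the openness of chromatin. The cells were untreated T follicular helper cells of C57BL/6 mice, taken straight from a cell sorter in the populations labelled Tfh4, Tfh214 and Tfh21. They came from Stat6 knockout (KO) mice and from Stat6 wild-type (WT) mice, with 1 library for each genotype and population, so that there were 6 libraries and no replicates. Per the labels, 10 mice per genotype were used for sorting and 50000 cells went into each library. The labels gave neither the age of the mice, the tissue, the sort markers nor the part of Stat6 that the allele lacks. Stat6 is the transcription factor activated by IL-4 receptor signalling, and T follicular helper cells are the CD4 T cells that help B cells in germinal centres. In bulk cells, a region that is less open in every cell and one that is open in fewer cells cannot be told apart.

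The proteasome is the barrel-shaped protease that degrades ubiquitin-tagged proteins. Alpha subunits form its outer rings and gate the entrance, and beta subunits form its inner rings and hold the active sites. A regulatory cap of ATPases and lid subunits binds, unfolds and feeds in the substrates. Lymphoid cells also make an immunoproteasome, in which interferon-inducible beta subunits replace the standard catalytic ones and favour peptides that fit MHC class I.

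The libraries held between 798555 reads in peaks (KO Tfh214) and 1373218 (WT Tfh4), recovered from the deposited CPM, the reads of a peak scaled to a common library total. Start-site peaks of all genes took 29.7, 34.9 and 36.4% of reads in KO Tfh4, Tfh214 and Tfh21, against 27.6, 31.0 and 31.5% in the WT libraries of the same order. The label of T follicular helper cells was checked on 8 marker genes, which all had peaks and summed to between 309 and 418 CPM in KO and between 326 and 382 CPM in WT. Of 6 B cell markers, 4 had a peak and none had one over its start, and they summed to between 91.3 and 106 CPM in KO and 102 and 145 CPM in WT. Cd79a and Ms4a1, which define B cells, had no peak. Of 2 CD8 T cell markers, Cd8a had no peak and the list summed to between 3.81 and 12.1 CPM in KO and 7.86 and 13.1 CPM in WT. The 5 myeloid markers all had peaks, 2 of them over a start, and summed to between 47.6 and 58.9 CPM in KO and 60.6 and 62.6 CPM in WT. The part of other cell types in the values below was not tested.

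Promoter sequence was compared for the 40 members with an entry in the RefSeq promoter table (build GRCm38.p6), each window running from 250 bases before to 50 bases after a start. The ETS motif CCGGAAG stood, on either strand, in 15 of 40 members (37.5%), against 9.93% of all 27025 genes in the table and 38.9% of 54 ribosomal protein genes. The SP box GGGCGG stood in 22 members (55%), against 38.2% of all genes and 59.3% of the ribosomal protein genes. CCAAT stood in 15 members (37.5%), against 41.1% of all genes and 31.5% of the ribosomal protein genes. For the antioxidant response element core TGACNNNGC these shares were 15% (6 members), 13.99% and 20.4%. The YY1 motif AAGATGGC stood in 3 members (7.5%), against 3.19% of all genes and 11.1% of the ribosomal protein genes. For the palindromic NRF1 consensus they were 5% (2 members), 1.07% and 3.7%. The members' windows were also richer in CG dinucleotides, with a median of 19 against 7 over all windows and a median GC content of 57.3% against 52.7%, and no count was matched for base composition. These matches describe letters and not bound sites. The promoter table held no entry for Psma8, Psmb1, Psmb2, Psmb7, Psmc3, Psmd3, Psmd7 and Psmg2.

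The 150 bases before the start are shown for 7 members that stand for the results below, read 5′ to 3′ along the gene's own strand with the motif letters in capitals. Psma7 (chr2:180042465-180042614, minus strand) had one of the strongest start peaks and carries repeated SP boxes. Psmc6 (chr14:45329674-45329823, plus strand) and Psmd4 (chr3:95042615-95042764, minus strand) carry the ETS motif, which in Psmc6 runs straight into an SP box. Psmc1 (chr12:100110052-100110201, plus strand) carries the ETS motif 28 bases before its start and yet had the weakest start peak of the group. Psmb5 (chr14:54617996-54618145, minus strand), a catalytic subunit gene with a weak peak, carries the antioxidant response element core 47 bases before its start. Psma2 (chr13:14613092-14613241, plus strand), with the NRF1 consensus and a CCAAT box, and Psmb9 (chr17:34187331-34187480, minus strand), with an SP box and a CCAAT box, start back to back with a neighbour on the other strand.
Psma7: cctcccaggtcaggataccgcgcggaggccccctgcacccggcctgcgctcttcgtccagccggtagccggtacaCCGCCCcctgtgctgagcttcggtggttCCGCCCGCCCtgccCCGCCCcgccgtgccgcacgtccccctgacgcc
Psmc6: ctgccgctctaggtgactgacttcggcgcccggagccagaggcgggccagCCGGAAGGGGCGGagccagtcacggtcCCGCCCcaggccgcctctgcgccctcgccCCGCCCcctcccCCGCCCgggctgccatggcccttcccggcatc
Psmd4: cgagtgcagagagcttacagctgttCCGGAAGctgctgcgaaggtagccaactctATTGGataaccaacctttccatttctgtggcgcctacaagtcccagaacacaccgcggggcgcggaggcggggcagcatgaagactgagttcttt
Psmc1: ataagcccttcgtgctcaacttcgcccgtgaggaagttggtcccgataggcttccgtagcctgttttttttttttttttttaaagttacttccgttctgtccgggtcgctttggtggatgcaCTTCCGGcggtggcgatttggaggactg
Psmb5: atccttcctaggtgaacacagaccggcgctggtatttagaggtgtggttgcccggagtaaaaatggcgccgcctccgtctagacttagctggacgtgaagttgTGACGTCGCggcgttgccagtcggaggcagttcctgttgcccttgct
Psma2: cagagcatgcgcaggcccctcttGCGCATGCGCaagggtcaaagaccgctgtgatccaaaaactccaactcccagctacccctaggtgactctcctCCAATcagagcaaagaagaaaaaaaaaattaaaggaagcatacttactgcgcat
Psmb9: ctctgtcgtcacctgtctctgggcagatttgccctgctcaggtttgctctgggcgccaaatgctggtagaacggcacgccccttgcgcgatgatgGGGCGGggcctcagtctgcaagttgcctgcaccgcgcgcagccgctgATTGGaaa

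Most reads of the members fell at their starts. Of 9521 reads over the 6 libraries, 7349 (77.2%) lay in start-site peaks, where the peaks of all genes held 48.0% of their reads. Introns held 15.6% of the members' reads in 89 peaks, against 31.2% for all genes. None of the 128 peaks away from a start reached a mean of 20 reads per library. Their median was 13 reads over all libraries, and the strongest, in intron 1 of Psmf1, held 90.

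A peak named for the gene lay over the start in 39 of the 48 genes. These 39 peaks had a median of 24.2 CPM, or 38.8 CPM per kb of peak, against 22.7 CPM and 35.1 CPM per kb over the start peaks of all 10847 genes that had one. Ribosomal protein genes stood at 42.8 CPM per kb (61 genes) and respiratory chain genes at 38.0 CPM per kb (58 genes). The members' quartiles were 33.4 and 43.5 CPM per kb, those of ribosomal protein genes 38.7 and 48.3, those of respiratory chain genes 30.0 and 46.4 and those of all genes 20.3 and 45.6. Per kb, Psme2 led with 63.4 CPM, before Psma5 with 59.7, Psmd5 with 55.1, Psmd12 with 51.4 and Psma3 with 51.3. At the low end stood Psmb5 with 26.1 CPM per kb, Psmg3 with 22.4, Psmd9 with 22.2 and Psmc1 with 8.5. For every pair of neighbours in this order the ranges over the 6 libraries overlapped. For the 31 members with a mean of at least 20 reads the median coefficient of variation was 16.8%, against 16.7% over the 6457 genes with such a peak.

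**Figure D1:**
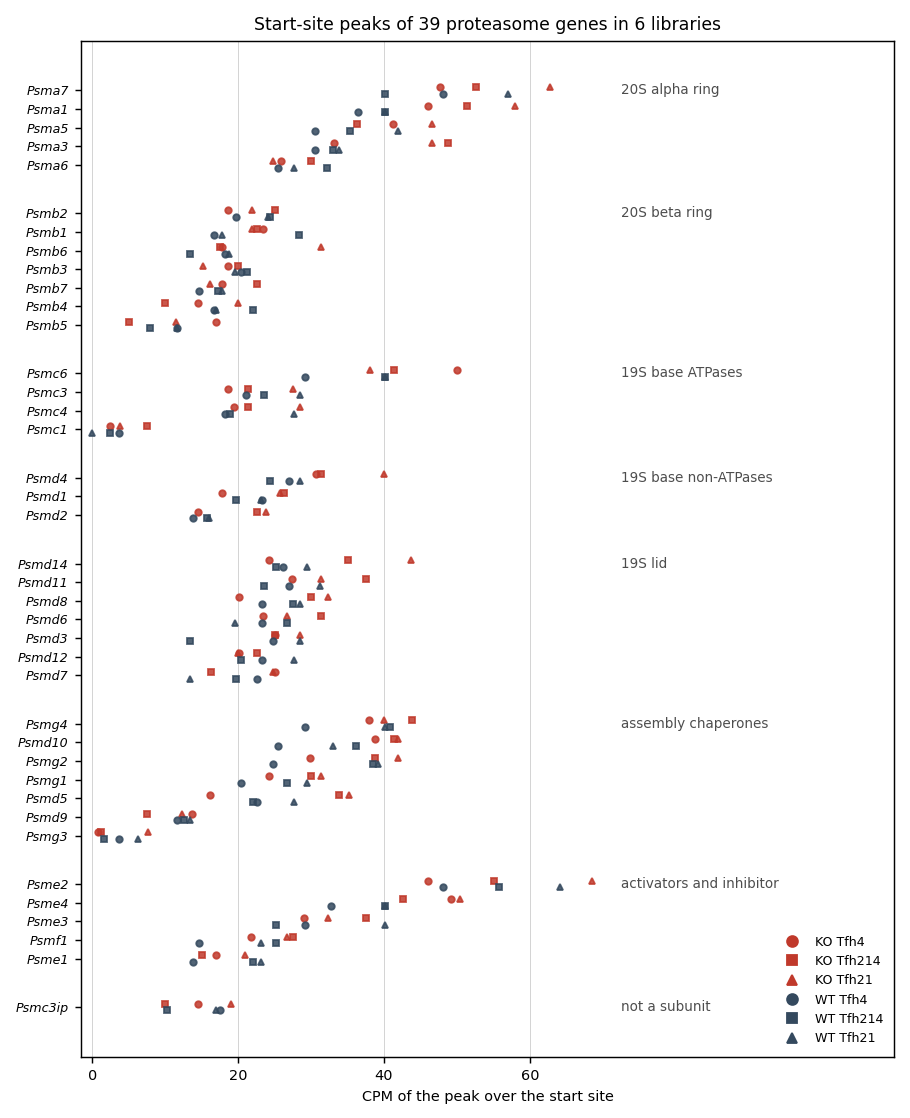
CPM (x axis) of the peak over the start of 39 members (y axis, grouped by role, strongest first), with 1 point per library. KO points are red and lie above the WT points in dark grey. The means run between 3.29 CPM in Psmc1 and 56.3 CPM in Psme2.

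The start peaks of the outer-ring genes averaged between 27.7 CPM (Psma6) and 51.4 CPM (Psma7). Psma7 had 47.6, 52.6 and 62.8 CPM in KO, against 48.1, 40.1 and 57.0 CPM in WT, in the order Tfh4, Tfh214 and Tfh21 that all series of 3 values below follow. Psma1 had 46.0, 51.3 and 58.0 CPM in KO, against 36.4, 40.1 and 40.1 CPM in WT. Psma3 had 33.1, 48.8 and 46.6 CPM in KO, against 30.6, 33.0 and 33.8 CPM in WT. The lowest KO library of Psma1 stood above the highest WT library, while the genotypes overlapped in Psma7 and, by a small margin, in Psma3. Summed over all peaks, Psma7 held 47.6, 58.9 and 64.7 CPM in KO, against 51.0, 40.1 and 60.6 CPM in WT and Psma3 held 44.4, 56.4 and 61.8 CPM in KO, against 36.4, 44.0 and 46.3 CPM in WT, again with overlap.

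The start peaks of the standard inner-ring genes averaged between 10.7 CPM (Psmb5) and 22.3 CPM (Psmb2). Psmb5, which encodes the chymotrypsin-like catalytic subunit, held 21, 4 and 12 reads in KO, against 16, 10 and 13 reads in WT over all its peaks. Psmb6, the caspase-like subunit, held 17.8, 17.5 and 31.4 CPM in KO, against 18.2, 13.4 and 18.7 CPM in WT at its start, and 21.0, 23.8 and 36.2 CPM in KO, against 26.2, 15.7 and 24.0 CPM in WT over all its peaks. Psmb7, the trypsin-like subunit, held 41.2, 46.3 and 45.7 CPM in KO, against 43.0, 44.0 and 43.6 CPM in WT over its 15 peaks, of which the start peak took 39.7% of reads. Psmb7 was the most even of the catalytic genes over libraries, while Psmb5 was highest in KO Tfh4 and lowest in KO Tfh214. The structural inner-ring gene Psmb1 held 23.4, 22.5 and 21.9 CPM in KO, against 16.7, 28.3 and 17.8 CPM in WT at its start, and 33.1, 30.1 and 30.4 CPM in KO, against 22.6, 38.5 and 25.8 CPM in WT over all its peaks. Psmb4, another structural subunit, held 18, 8 and 21 reads in KO, against 23, 28 and 19 reads in WT in all its peaks. In both genes the genotypes overlapped.

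Only 4 members, Psmb8, Psmb10, Psmb11 and Psma8, had no peak of any symbol over their starts. All 4 belong to the class of 5 inducible or tissue-restricted genes, and the start of Psmb9, also of this class, lay under a peak described below. Psmb8 did have 3 peaks annotated to a start site, but none lay over the start itself. Psmb8, the inducible chymotrypsin-like subunit, held 9, 10 and 22 reads in KO, against 25, 12 and 17 reads in WT in 6 weak peaks, the nearest of them 115 bases before and 120 bases after its start. Psmb10, the inducible trypsin-like subunit, held 28, 21 and 14 reads in KO, against 28, 20 and 17 reads in WT, and its strongest peak (61 reads) began 117 bases into the gene. Psmb8 had fewest reads in KO Tfh4 and Psmb10 had fewest in the Tfh21 libraries. Psma8, the alpha subunit of male germ cells, held 18, 5 and 17 reads in KO, against 14, 14 and 9 reads in WT, all in introns. Psmb11, the subunit of thymic cortical epithelium, held 1, 0 and 2 reads in KO, against 6, 3 and 1 reads in WT in a single peak. Neither gene passed 20 reads in any library. The low levels lie near the floor of the peak list, and they say nothing of the amount of each protein.

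The starts of 5 members lay under a peak that carried the symbol of a neighbour transcribed from the other strand, so reads at these starts were missed by sums over the member's symbol. The annotation of the files (mm9) places the start of Psmb9, an inducible catalytic subunit, 225 bases from that of Tap1, a peptide transporter gene of MHC class I presentation. It places Psma2 204 bases from Mrpl32, Psmc2 117 bases from Dnajc2, Psmc5 382 bases from Ftsj3 and Psmd13 524 bases from Sirt3. The peak over the Psmb9 start (chromosome 17, 34323963 to 34324735) held 27.5, 37.6 and 44.7 CPM in KO, against 32.8, 29.9 and 33.8 CPM in WT, where the peaks named Psmb9 held 3.23, 1.25 and 3.81 CPM in KO, against 5.83, 2.36 and 1.78 CPM in WT. The peak over the Psma2 start (chromosome 13, 14705080 to 14706055) held 42.8, 51.3 and 54.2 CPM in KO, against 46.6, 45.6 and 57.0 CPM in WT, where the peaks named Psma2 held 12.9, 10.0 and 12.4 CPM in KO, against 3.64, 8.65 and 11.6 CPM in WT. These 2 shared peaks held 44.5 and 50.9 CPM per kb, above the members' median of 38.8, and the sums by symbol were far lower in every library. The shared peaks over the starts of Psmc2, Psmc5 and Psmd13 held 37.4, 37.4 and 38.4 CPM per kb, below that median. Psmc2, a cap ATPase, had 23.4, 32.6 and 36.2 CPM in KO, against 18.9, 29.1 and 23.2 CPM in WT over its start and Psmc5, another cap ATPase, had 25.8, 28.8 and 32.3 CPM in KO, against 28.4, 27.5 and 22.3 CPM in WT. Psmd13, a lid subunit, had 20.2, 32.6 and 33.3 CPM in KO, against 27.7, 26.7 and 28.5 CPM in WT. Under their own symbols Psmc5 held 2, 0 and 4 reads in KO, against 3, 2 and 1 reads in WT and Psmd13 4, 1 and 2 reads in KO, against 5, 6 and 6 reads in WT. The peak over the Psmd13 start does not reach the annotated start of Sirt3, whose symbol it carries, and the other 4 peaks cover the starts of both genes. None of the 5 was called between genotypes or populations by the additive model described below (limma, adjusted p of at least 0.162).

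**Figure D2:**
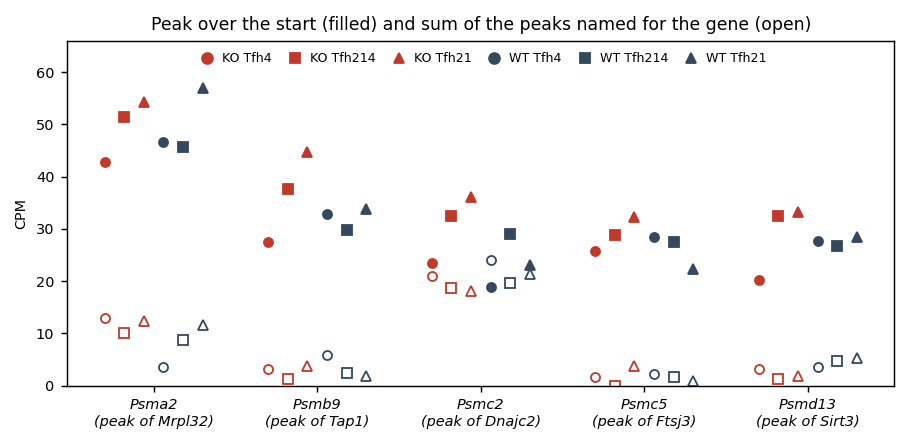
CPM (y axis) in the 6 libraries for the 5 members whose start lies under a peak named for a neighbour. Filled points are that peak and open points the sum of the peaks named for the member, KO in red left of WT in dark grey. Except for Psmc2, the filled points stand far above the open ones.

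The start peaks of the cap genes ranged between 3.29 CPM (Psmc1) and 39.8 CPM (Psmc6) on average. The values below are sums over all peaks of a gene. Among the ATPases, Psmc6 held 50.1, 41.3 and 38.1 CPM in KO, against 29.1, 40.1 and 40.1 CPM in WT, all at its start, and was highest in KO Tfh4. Psmc3 held 21.0, 22.5 and 30.4 CPM in KO, against 26.2, 27.5 and 30.3 CPM in WT. Psmc4 held 27.5, 26.3 and 35.2 CPM in KO, against 23.3, 23.6 and 35.6 CPM in WT, with the Tfh21 library highest in each genotype. Psmc1 held 9, 8 and 8 reads in KO, against 21, 8 and 6 reads in WT, and 16 of the 21 reads in WT Tfh4 lay in intron 6. Among the other base subunits, the ubiquitin receptor gene Psmd4 held 38.8, 31.3 and 48.5 CPM in KO, against 35.7, 29.1 and 33.8 CPM in WT, and the scaffold gene Psmd2 held 19.4, 26.3 and 25.7 CPM in KO, against 18.9, 24.4 and 21.4 CPM in WT. In Psmc4, Psmd4 and Psmd2 the genotypes overlapped. In the lid, Psmd14, the deubiquitinase, held 46.0, 47.6 and 60.9 CPM in KO, against 50.2, 42.5 and 49.0 CPM in WT. Psmd12 held 27.5, 25.05 and 20.9 CPM in KO, against 32.8, 24.4 and 33.0 CPM in WT. Psmd8 held 21.0, 33.8 and 34.2 CPM in KO, against 24.0, 28.3 and 31.2 CPM in WT. Psmd8 was lowest in the Tfh4 libraries of both genotypes. Psmd6 held 23.4, 31.3 and 26.6 CPM in KO, against 23.3, 26.7 and 19.6 CPM in WT and was higher in KO in each population, with overlap between the genotypes. Psmd7 held 30.7, 17.5 and 29.5 CPM in KO, against 26.9, 28.3 and 17.8 CPM in WT, low in KO Tfh214 and in WT Tfh21 and higher elsewhere.

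The genes of assembly chaperones are likewise given as sums over all peaks, unless the start is named. Psmg4, of the core assembly chaperones, held 37.9, 43.8 and 39.96 CPM in KO, against 29.1, 40.9 and 40.1 CPM in WT. Psmg2, another of them, held 32.3, 41.3 and 42.8 CPM in KO, against 26.9, 40.1 and 40.1 CPM in WT. Psmg3 held 8, 6 and 15 reads in KO, against 20, 15 and 19 reads in WT, with fewest in the KO Tfh4 and KO Tfh214 libraries. Of the chaperones of the cap base, Psmd10 held 38.8, 41.3 and 41.9 CPM in KO, against 25.5, 36.2 and 33.0 CPM in WT, with each KO library above each WT library. Psmd9 held 18.6, 11.3 and 27.6 CPM in KO, against 22.6, 15.7 and 24.0 CPM in WT, with the Tfh214 library lowest in each genotype. Psmd5 held 16.1, 33.8 and 35.2 CPM in KO, against 22.6, 22.0 and 27.6 CPM in WT at its start, with KO Tfh4 lowest.

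Among the activator genes, Psme2 had the highest mean start peak of the 39 members, while Psme1 was 31st. Psme2 and Psme1 encode the interferon-inducible activator ring that docks on the core. Summed over all peaks, Psme2 held 53.3, 61.4 and 77.1 CPM in KO, against 62.6, 64.5 and 76.6 CPM in WT. Psme1 held 17.0, 16.3 and 22.8 CPM in KO, against 17.5, 22.8 and 24.9 CPM in WT. In each genotype the Tfh21 library was the highest for both genes, and Psme1 was lower in KO in each population. Psme4, an ATP-independent activator linked to histone degradation, held 66.2, 63.9 and 59.0 CPM in KO, against 55.3, 51.9 and 51.7 CPM in WT, each KO library above each WT library. Psme3, the nuclear activator, held 29.9, 37.6 and 32.3 CPM in KO, against 32.0, 28.3 and 41.0 CPM in WT, and the inhibitor gene Psmf1 held 36.3, 42.6 and 41.9 CPM in KO, against 39.3, 43.2 and 37.4 CPM in WT. In both the genotypes overlapped. Psmc3ip, the gene that is no subunit, held 20, 8 and 23 reads in KO, against 26, 14 and 23 reads in WT.

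The comparison of KO with WT asks what the loss of Stat6 changes at these genes. No member was called on gene sums or on start-site peaks, and 26 of the 36 members tested on gene sums had a log2 estimate above 0 (72.2%, against 63.7% of all genes). On start-site peaks, 25 of 31 estimates were above 0 (80.6%, against 85.4% of all start-site peaks). limma was fitted to log2(CPM + 1) with genotype and population as additive terms over all features with a mean of at least 20 reads. It called 0 members at an adjusted p under 0.05, where 6 of 10825 genes (0.0554%) and 77 of 8986 peaks (0.857%) were called. The 12 members below the minimum had no test, and they were Psma2, Psma8, Psmb4, Psmb5, Psmb8, Psmb9, Psmb11, Psmc1, Psmc3ip, Psmc5, Psmd13 and Psmg3. At an unadjusted p under 0.05 stood 3 gene sums (8.33% of the members, against 11.1% of all genes) and 4 start-site peaks (12.9%, against 20.5% of all start-site peaks), all higher in KO. Over all start-site peaks, 1396 were higher and 5 lower in KO at this p, so the members' share was below the background and their direction was that of the background. edgeR also called 0 members, with 1 gene sum and 0 start-site peaks at an unadjusted p under 0.05, and DESeq2 called 0 with 0 and 0. With 1 library per group, the error comes from the spread over populations and from genes of like level. Each genotype was also 1 set of mice and libraries, so effects of Stat6 and of those sets cannot be told apart.

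Psma1, Psmd10 and Psma3 had the largest positive estimates. Psma1 averaged 51.8 CPM in KO and 38.9 CPM in WT, a log2 difference of 0.40 ± 0.16 (SE, limma, adjusted p = 0.344, higher in 3 of 3 populations). Psmd10 averaged 40.6 CPM in KO and 31.5 CPM in WT (0.37 ± 0.18, adjusted p = 0.441 by limma, 3 of 3 populations). Psma3 averaged 54.2 CPM in KO and 42.3 CPM in WT (0.35 ± 0.15, adjusted p = 0.385 by limma, 3 of 3 populations). At its start peak, Psma1 reached an adjusted p of 0.104 by limma, and Psme4 had a difference of 0.33 ± 0.14 with an adjusted p of 0.188. The largest negative estimates were those of Psmd12 (−0.28 ± 0.21), Psme1 (−0.21 ± 0.25) and Psmc3 (−0.19 ± 0.21), with adjusted p between 0.624 and 0.769 by limma. None of these estimates passed the test.

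The members' medians stood close to those of all genes. Their median log2 difference between KO and WT was 0.09 on gene sums, against 0.07 over all genes tested, and 0.16 on start-site peaks, against 0.18 over all 6821 start-site peaks tested. Ribosomal protein genes stood at 0.13 and 0.14 and respiratory chain genes at 0.14 and 0.17 on the same measures. Of the 36 members, 9 were higher in KO in all 3 populations (25%, against 24.8% of all genes), and they were Psma1, Psma3, Psmd2, Psmd4, Psmd6, Psmd10, Psme4, Psmg1 and Psmg2. By gene sums, Psmc2 and Psme1 were lower in all 3 (5.56%, against 9.64%). The peak over the Psmc2 start, which carries the symbol Dnajc2, ran the other way, higher in KO in all 3 populations (0.36 ± 0.19, adjusted p = 0.257 by limma). At its own start peak Psme1 was higher in KO Tfh4 (17.0 CPM) than in WT Tfh4 (13.8 CPM). Scaled to the reads in start-site peaks, 3 members (Psma1, Psma3 and Psmd10) were higher in KO in all 3 populations, against 6.64% of all genes, and 10 were lower, against 25.2%. That scaling also turned the sign of both medians on gene sums, to −0.07 for the members and −0.09 for all genes, and it turned the medians between Tfh4 and Tfh21 to 0.05 and 0.12.

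**Figure D3:**
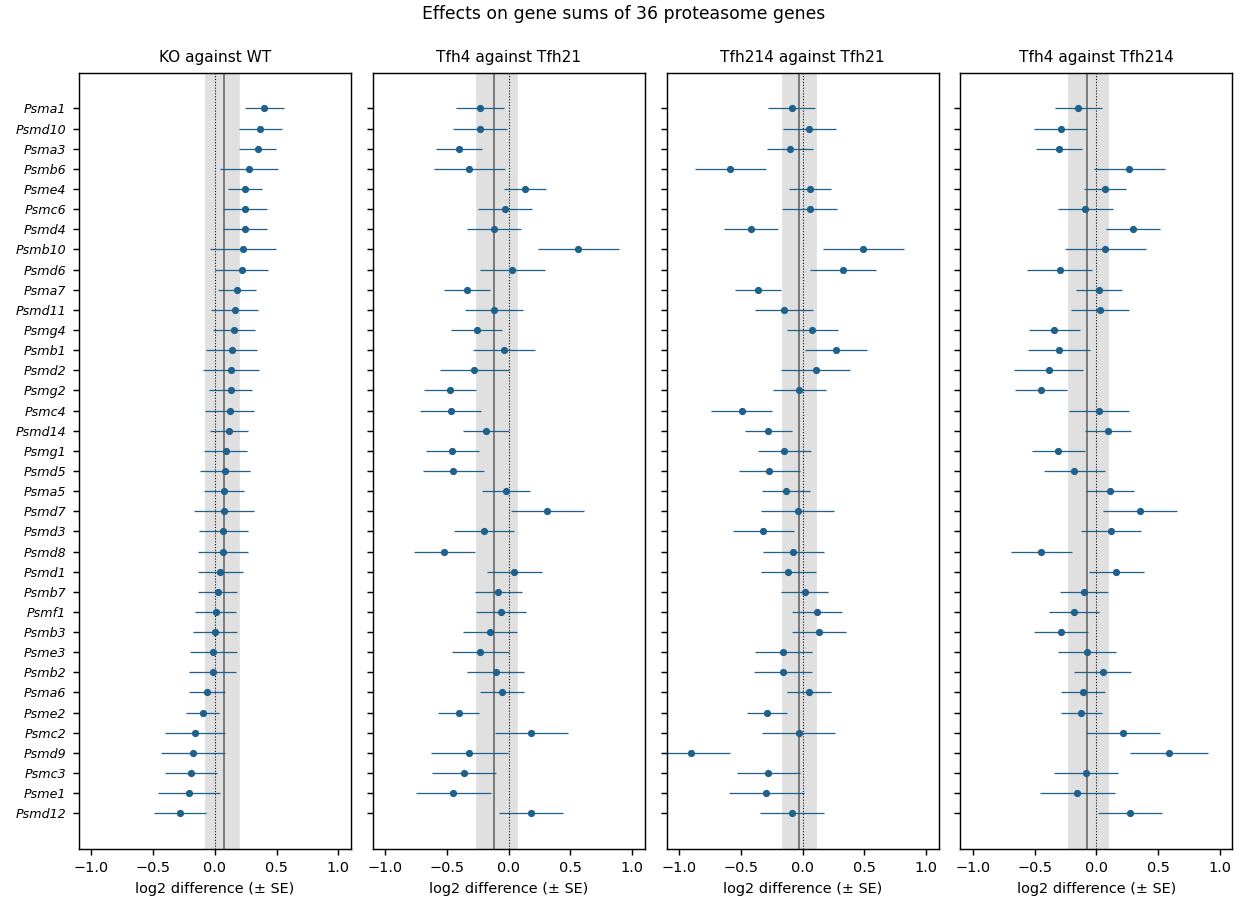
Log2 differences (x axis, ± SE of the additive limma model) of the 36 members tested on gene sums, for 4 comparisons. The grey line and band are the median and quartiles of all 10825 genes tested, and the dotted line is 0. The members scatter around the line of all genes in each panel, and none was called.

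**Figure D4:**
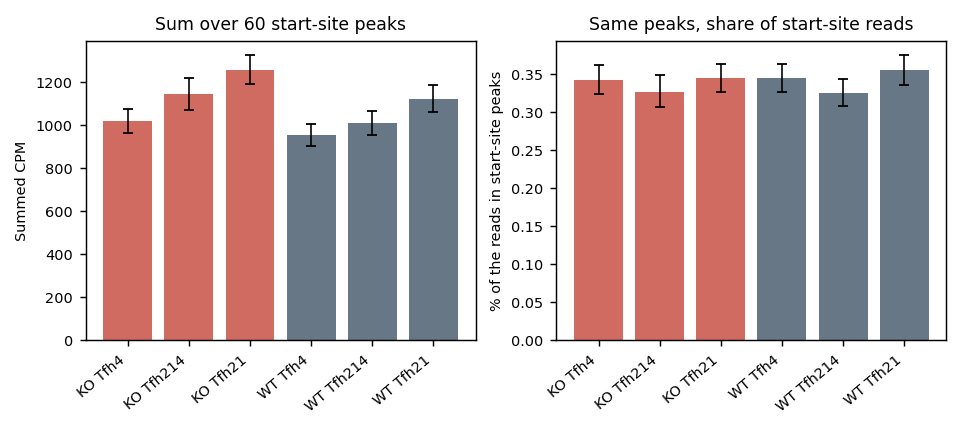
Reads in the members' 60 start-site peaks by library, as summed CPM with Poisson 95% intervals (left) and as a share of all start-site reads with Wilson 95% intervals (right). KO libraries are red and WT libraries dark grey. The CPM sums differ between libraries and the shares lie between 0.326 and 0.356%.

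The summed level moved with the share of reads at starts. The members' start-site peaks summed to 1018, 1143 and 1257 CPM in KO Tfh4, Tfh214 and Tfh21, against 954, 1010 and 1121 CPM in WT. In each population the KO sum was the higher one, and in each genotype Tfh4 had the lowest sum and Tfh21 the highest. As a share of all start-site reads the same peaks held 0.343, 0.327 and 0.345% in KO, against 0.345, 0.326 and 0.356% in WT. The 95% Wilson interval ran from 0.308 to 0.344% for the lowest share, in WT Tfh214, and from 0.336 to 0.376% for the highest, in WT Tfh21. The intervals of every pair of libraries overlapped, but they cover counting error only and their overlap is no test of a difference. The members' peaks away from starts ran otherwise, at 325, 267 and 302 CPM in KO and 360, 301 and 322 CPM in WT.

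Between Tfh4 and Tfh21 no member was called (limma). Of the 36 members tested on gene sums, 7 had an estimate above 0 (19.4%), against 32.9% of all genes and 14.8% of ribosomal protein genes. On start-site peaks, 4 of 31 estimates were above 0 (12.9%), against 7.80% of all start-site peaks. Over all features, 0 of 10825 genes (0.0%) and 118 of 8986 peaks (1.31%) were called. At an unadjusted p under 0.05 stood 5 gene sums (13.9%, against 12.7% of all genes) and 6 start-site peaks (19.4%, against 26.1% of all start-site peaks), all lower in Tfh4. Over all start-site peaks, 1778 were lower and 2 higher in Tfh4 at this p. edgeR called 0 members, with 1 gene sum and 1 start-site peak at an unadjusted p under 0.05, and DESeq2 called 0 with 0 and 0. The members' median was −0.19 on gene sums, against −0.11 for all genes, and −0.26 on start-site peaks, against −0.27 for all start-site peaks.

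Psmd5, Psmg2 and Psme2 came nearest to a call between Tfh4 and Tfh21. The start peak of Psmd5 held 16.1 and 22.6 CPM in Tfh4 of KO and WT, against 35.2 and 27.6 CPM in Tfh21 (log2 difference −0.68 ± 0.24, adjusted p = 0.0881 by limma). The start peak of Psmg2 held 29.9 and 24.8 CPM in Tfh4 of KO and WT, against 41.9 and 39.2 CPM in Tfh21 (−0.56 ± 0.19, adjusted p = 0.0834 by limma). The start peak of Psme2 held 46.0 and 48.1 CPM in Tfh4 of KO and WT, against 68.5 and 64.1 CPM in Tfh21 (−0.49 ± 0.15, adjusted p = 0.0593 by limma). Each of these peaks was lower in both Tfh4 libraries than in both Tfh21 libraries. All 3 passed when the KO Tfh214 library was left out (limma, adjusted p = 0.0475, 0.0475 and 0.0291), Psmd5 and Psme2 passed without WT Tfh214 (0.0422 and 0.0312), and Psmd5 passed without WT Tfh4 (0.0245). Each of these fits has 1 residual degree of freedom. How many of all start-site peaks passed in them is not given here, so these passes have no background beside them. With all 6 libraries, limma called 78 of 6821 start-site peaks, all lower in Tfh4. Without KO Tfh214 the estimates of Psmd5, Psmg2 and Psme2 stayed at −0.68, −0.56 and −0.49. Without WT Tfh214 those of Psmd5 and Psme2 also stayed the same, so these passes came without a larger difference. The fit without WT Tfh4 also sets KO Tfh4, the lowest Psmd5 library, alone for Tfh4. It assumes that KO Tfh4 varies like the others, and the Psmd5 estimate was −1.14. With reads scaled to start-site reads, whose share was also lowest in Tfh4, no member was called. Among gene sums, the largest falls in the estimate were those of Psmd8 (−0.52 ± 0.25), Psmg2 (−0.48 ± 0.21) and Psmc4 (−0.47 ± 0.25), with adjusted p between 0.351 and 0.419 by limma. Psmb10 ran the other way, at 22.6 and 20.4 CPM in Tfh4 of KO and WT against 13.3 and 15.1 CPM in Tfh21 (0.56 ± 0.33, adjusted p = 0.462 by limma), before Psmd7 (0.31 ± 0.30) and Psmd12 (0.18 ± 0.26).

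Tfh214 and Tfh21 differed less. No member was called (limma), where 0 of 10825 genes (0.0%) and 0 of 8986 peaks (0.0%) were called. At an unadjusted p under 0.05 stood 1 gene sum (2.78%, against 5.10% of all genes) and 3 start-site peaks (Psma7, Psmd3 and Psmb6, 9.68%, against 3.83% of all start-site peaks), all lower in Tfh214. edgeR called 0 members, with 1 gene sum and 2 start-site peaks at an unadjusted p under 0.05, and DESeq2 called 0 with 0 and 0. The gene sum was that of Psmd9, at 11.3 and 15.7 CPM in Tfh214 of KO and WT against 27.6 and 24.0 CPM in Tfh21 (−0.90 ± 0.31, adjusted p = 0.877 by limma). Psmb6 (−0.58 ± 0.29) and Psmc4 (−0.49 ± 0.25) followed, and the largest positive estimates were those of Psmb10 (0.49 ± 0.33), Psmd6 (0.33 ± 0.27) and Psmb1 (0.27 ± 0.25). The members' median was −0.09, against −0.03 for all genes.

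Tfh4 and Tfh214 were compared on the same libraries, so this comparison shares samples with both others. No member was called (limma), where 0 of 10825 genes (0.0%) and 178 of 8986 peaks (1.98%) were called. At an unadjusted p under 0.05 stood 1 gene sum (2.78%, against 10.1% of all genes) and 3 start-site peaks (Psmg2, Psmd5 and Psmf1, 9.68%, against 21.9% of all start-site peaks), all lower in Tfh4. edgeR called 0 members, with 0 gene sums and 2 start-site peaks at an unadjusted p under 0.05, and DESeq2 called 0 with 0 and 0. Psmg2 (−0.45 ± 0.21, adjusted p = 0.485 by limma), Psmd8 (−0.45 ± 0.25) and Psmd2 (−0.39 ± 0.28) had the largest negative estimates. Psmd9 (0.58 ± 0.31), Psmd7 (0.35 ± 0.30) and Psmd4 (0.29 ± 0.22) had the largest positive ones. The members' median was −0.09, against −0.08 for all genes.

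Single libraries were then set side by side, counting members at least 1.5-fold apart on the (CPM + 1) scale where the higher library held at least 20 reads. Such a pair has no replicate and no test. KO Tfh4 was higher than WT Tfh4 in 2 of 42 members (4.55% of all genes measured) and lower in 3 (7.19% of all genes). KO Tfh214 was higher than WT Tfh214 in 3 of 37 members (4.57%) and lower in 2 (6.34%). KO Tfh21 was higher than WT Tfh21 in 1 of 38 members (4.77%) and lower in 1 (5.02%). The percentages in brackets, here and below, are the shares of all genes measured that passed the same threshold in the same direction. The members' shares ran between 2.63 and 8.11% over these 6 counts, and the background between 4.55 and 7.19%.

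Pairs of populations within a genotype gave counts of a similar size. KO Tfh4 was higher than KO Tfh21 in 1 of 40 members (7.23%) and lower in 4 (7.8%). KO Tfh214 was higher than KO Tfh21 in 1 of 38 members (3.12%) and lower in 6 (4.98%), which were Psmb4, Psmb8, Psmc3ip, Psmd4, Psmd7 and Psmd9. KO Tfh4 was higher than KO Tfh214 in 4 of 38 members (6.65%) and lower in 2 (5.63%). These 3 pairs share libraries with each other. WT Tfh4 was higher than WT Tfh21 in 1 of 41 members (6.54%) and lower in 1 (4.0%). WT Tfh214 was higher than WT Tfh21 in 1 of 38 members (4.62%) and lower in 3 (3.94%). WT Tfh4 was higher than WT Tfh214 in 5 of 41 members (7.2%) and lower in 1 (5.28%). The members furthest above background were those lower in KO Tfh214, the library with the fewest reads, than in KO Tfh21, at 15.8% of the members measured.

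**Figure D5:**
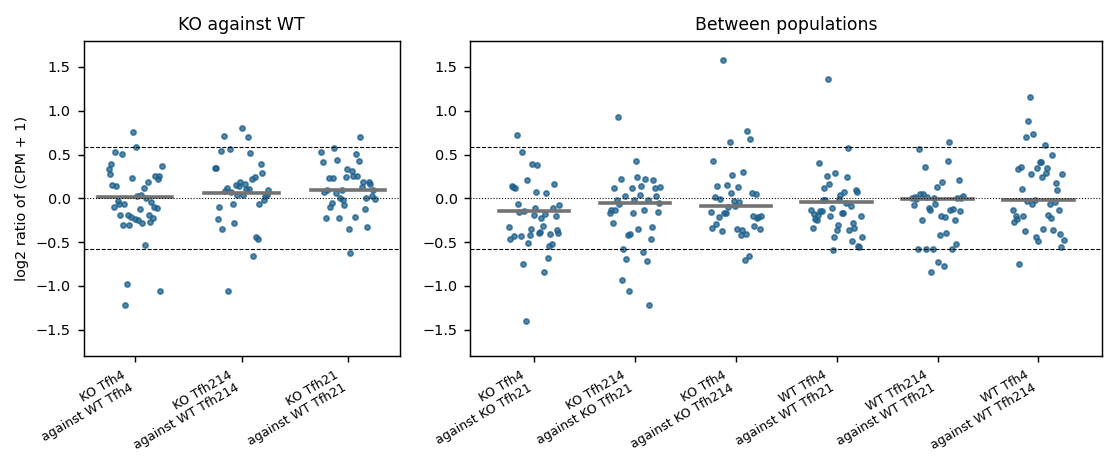
Log2 ratio of (CPM + 1) between 2 libraries (y axis) for each member whose higher library held at least 20 reads, for KO against WT (left) and for populations within a genotype (right). Grey bars mark the median of all genes measured, dashed lines the 1.5-fold threshold and the dotted line 0. Most members lie between the dashed lines.

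Differences past 2-fold were few and rested on low counts. Psmb8 held 9 reads in KO Tfh4 against 25 in WT Tfh4, a CPM ratio of 0.399 (exact 95% interval 0.164 to 0.884), and 9 in KO Tfh4 against 22 in KO Tfh21, a ratio of 0.347 (0.141 to 0.784). Psmd9 held 9 reads in KO Tfh214 against 29 in KO Tfh21 (0.408, 0.170 to 0.886). Psmb5 held 21 reads in KO Tfh4 against 4 in KO Tfh214 (3.38, 1.14 to 13.6). In each of these the counting interval excluded a ratio of 1. Psmc1 held 21 reads in WT Tfh4 against 6 in WT Tfh21 (2.86, 1.12 to 8.67) and 8 in WT Tfh214 (2.43, 1.03 to 6.35). The intervals of Psmg3 in KO Tfh4 against WT Tfh4 (0.443, 0.169 to 1.05), Psmb4 in KO Tfh214 against WT Tfh214 (0.455, 0.179 to 1.02) and Psmc3ip in KO Tfh214 against KO Tfh21 (0.458, 0.177 to 1.06) included 1. These intervals cover counting error only and are not adjusted for the number of pairs and genes.

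Away from starts, the strongest member peaks were few and weak. The peak in intron 1 of Psmf1 held 90 reads in all, with 29 in WT Tfh4 and 8 in WT Tfh21. A peak in coding exon 2 of Psmc2 held 69 reads, one in coding exon 2 of Psmb10 held 61 and one in intron 3 of Psma2 held 52. All were below the minimum for a test.

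Genes that work with the proteasome were examined as a list of 39 symbols. Some are alternative symbols of the same gene (Sem1 and Shfm1, AI314180 and Ecm29, Ufd1l and Ufd1), so a symbol without a peak need not be a gene without one. It held cap partners, ubiquitin genes, shuttle factors, the transcription factors Nfe2l1 and Nfe2l2, and genes of MHC class I presentation. Of these, 35 had a peak and 34 were tested on gene sums, and limma called 0 in any of the 4 comparisons in the main fit. Under an alternative run, Nfe2l2 and Ubqln4 passed an adjusted p under 0.05 between Tfh4 and Tfh21. Between KO and WT, 1 gene was higher and 2 were lower at an unadjusted p under 0.05 (8.82% of the 34, against 11.1% of all genes). Nfe2l2, which encodes a regulator of antioxidant genes, averaged 156 CPM in KO and 128 CPM in WT (0.28 ± 0.11, adjusted p = 0.338 by limma). Nploc4, which encodes a cofactor of the segregase Vcp, averaged 16.5 CPM in KO and 28.6 CPM in WT (−0.75 ± 0.23, adjusted p = 0.268 by limma). Nlrc5, a transactivator of MHC class I genes, averaged 31.5 CPM in KO and 42.2 CPM in WT (−0.41 ± 0.17, adjusted p = 0.381 by limma). Pomp, the core maturation factor, averaged 50.4 CPM in KO and 42.3 CPM in WT (0.26 ± 0.16, adjusted p = 0.536 by limma). None of these passed the test.

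Between Tfh4 and Tfh21, 6 genes of the list had a lower estimate in Tfh4 at an unadjusted p under 0.05 and 0 a higher one (17.6% of the 34, against 12.7% of all genes, of which 917 were lower and 460 higher). They were Tap1, B2m and Erap1 of MHC class I presentation, the shuttle factor gene Ubqln4, Nfe2l2 and Zfand5. Tap1, whose start peak also covers the start of Psmb9, averaged 38.4 CPM in Tfh4 and 54.1 CPM in Tfh21 (−0.48 ± 0.21, adjusted p = 0.341 by limma). B2m averaged 35.8 CPM in Tfh4 and 50.5 CPM in Tfh21 (−0.49 ± 0.20, adjusted p = 0.315 by limma). Tap2 stood at −0.29 ± 0.22, Tapbp at −0.05 ± 0.33 and Nlrc5, which ran the other way, at 0.27 ± 0.21. The list's median was −0.20, against −0.11 for all genes. On start-site peaks the list's median was −0.267, against −0.268 for all start-site peaks. There 10 of 28 peaks were lower in Tfh4 at an unadjusted p under 0.05 by limma (35.7%, against 26.1% of all start-site peaks).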

How the data were processed

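Nuclei of 6 sorted cell samples were tagmented and sequenced as 75 base read pairs, per the labels' protocols. The submitters' processing notes list Bowtie 1.3.0, MACS2 2.0, HOMER and the mm9 build and say nothing here of what each did. The deposited values are CPM per peak on a shared list of peaks, with no replicates. Whole reads were recovered from the CPM steps: at least 99.9989% of values in each library came out whole, within 0.02 reads. Reads and CPM were summed over all peaks carrying a gene's symbol, and the peaks annotated to a start were also used alone. No column of other samples was present (0 unmapped).

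limma 3.58.1 (R 4.3.3) was fitted to log2(CPM + 1) over all features with a mean of at least 20 reads, with genotype and population as additive terms and Benjamini-Hochberg adjustment. Its p-values set effects against the residual of that model, which has 2 degrees of freedom before moderation. edgeR 4.0.16 and DESeq2 1.42.0 on the recovered reads were alternatives. Between KO and WT edgeR called 4 of 10825 genes and 1 of 8986 peaks, DESeq2 called 1 gene and 0 peaks, and neither called a member. Intervals for ratios of reads and for shares are 95% intervals and cover counting error only. Other alternatives were 2 scalings, other minimums and pseudocount, no variance trend, the strongest peak alone and leaving out each library. The search for peaks of any symbol over a member's start was added after seeing the data. Values in all libraries are given for the catalytic, inducible, tissue-restricted, activator and inhibitor genes and Psmc3ip, the members with most and fewest reads in each role class, the 3 largest positive and negative estimates in each comparison, and members past 2-fold in a pair. Psmd5 was added after its values were seen. The members and lists were chosen with earlier results of these data known. The fitting code was also run on simulated counts with known changes. Those counts held no difference between libraries in the share of reads at starts, so that run checked the code and not the calls made here.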

Additional observations from a re-analysis of the deposited data

Results flagged for a closer look

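Psmd7, a lid subunit gene, ran in opposite directions in different populations and genotypes. The log2 ratio of KO Tfh21 against WT Tfh21 was 0.70 (31 against 20 reads), while that of KO Tfh214 against WT Tfh214 was −0.66 (14 against 36 reads). Seen by population, the log2 ratio of KO Tfh214 against KO Tfh21 was −0.72 and that of WT Tfh214 against WT Tfh21 was 0.64. These 4 values share 4 libraries, the difference between them was not tested, and the counting interval of each ratio included 1.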

How the results depend on the processing

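No member was called in any of the 4 comparisons on gene sums under any alternative run. Of the genes that work with the proteasome, Nfe2l2 and Ubqln4 were called between Tfh4 and Tfh21 on gene sums under an alternative run only. On start-site peaks between Tfh4 and Tfh21, the count of members called ran between 0 and 3 when 1 library was left out, and was 0 under the other alternatives run. The cause was not tested. The share of all start-site peaks called in those fits is not given here. With all 6 libraries, limma called 78 of 6821 start-site peaks between Tfh4 and Tfh21, all lower in Tfh4. Of 104 fitted values of named genes, 29 changed sign with scaling to start-site reads, 8 with median-of-ratios scaling and 10 each with edgeR and DESeq2. None did with other minimums, pseudocount or variance trend. Leaving out a library changed the sign in 62 of 624 values, and using the strongest peak alone in 10 of 88. None of the sign changes was in a called value. No paired analysis was possible because the labels carry no replicate numbers, other than the pairing of KO with WT within a population that the additive model already holds. Depth limits the 12 genes below a mean of 20 reads. Over all peaks, limma made more calls than the count tests. Between KO and WT limma called 77 peaks, edgeR 1 and DESeq2 0, and limma called 118 between Tfh4 and Tfh21 and 178 between Tfh4 and Tfh214, where edgeR and DESeq2 called 0. Over gene sums between KO and WT limma called 6, edgeR 4 and DESeq2 1.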
